A study of Sus scrofa with 4 samples.

Results

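ACKR1 venular endothelial cells are the blood vessel lining cells of pig meniscus whose barcodes carried the atypical chemokine receptor ACKR1. A barcode was counted as such a cell when it held at least 200 genes, at least 3 UMIs of the endothelial genes PECAM1, PLVAP, VWF, ADGRL4 and CLEC14A together and at least 2 UMIs of ACKR1. It also had to hold no APLN or ESM1 (genes of sprouting tips), at most 1 UMI of the lymphatic genes MMRN1 and PROX1, at most 2 of the mural genes ACTA2, MYH11 and RGS5, at most 2 of the macrophage genes C1QA, C1QB and C1QC, and COL2A1 under 0.5% of its UMIs. Of 27782 barcodes 342 met the rule. The cells were thus chosen by measured UMI counts of 17 genes, so the levels of those genes are a description and no result. ACKR1 (ENSSSCG00000036223) is a protein-coding gene on chromosome 4 at 91224089 to 91225610 of the pig build Sscrofa11.1, per the RefSeq gene table.

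The menisci were those of Sus scrofa, fibrocartilage wedges between thigh bone and shin bone. They were freed of synovium, split by zone and digested with pronase and then Collagenase P. There was 1 10x Genomics 3' library for each of the lateral red, medial red, lateral white and medial white zones, so each zone had 2 libraries. The labels name no animals, strain, age or treatment, so p-values measure only the spread between these libraries, which may be technical. Libraries held 5753 to 7807 barcodes and 9666319 to 14902274 UMIs.

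In textbook vascular biology, ACKR1 binds many inflammatory chemokines without classical signalling and marks the endothelium of postcapillary venules and small veins. These venules are the vessel segment where leukocytes roll, adhere and leave the blood, by means of selectins and of ligands such as VCAM1 and ICAM1. In textbook anatomy the outer red zone of the meniscus carries vessels and the inner white zone does not.

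The cells were found almost wholly in the red zone. The lateral red library held 118 of them, 2.05% of its 5753 barcodes (exact 95% binomial interval 1.70 to 2.45%). The medial red library held 220 of them, 3.22% of 6840 barcodes (2.81 to 3.66%). The lateral white library held 1 of them, 0.0135% of 7382 barcodes (0.000343 to 0.0755%), and the medial white library 3, 0.0384% of 7807 (0.00793 to 0.112%). The COL2A1 limit left out 1 of 2 lateral white barcodes that met the endothelial and ACKR1 conditions. It left out 0 such barcodes in the medial white, lateral red and medial red libraries. Intervals and floors here and below cover counting error only, and 2 against 2 libraries cannot go below an exact two-sided permutation p of 0.33, so the zones were not tested on this share.

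Blood endothelial cells of any ACKR1 level were rarer in the white zone too, but the share also differed within them. They met the same endothelial, lymphatic, mural, macrophage and COL2A1 limits with no condition on ACKR1, APLN or ESM1. ACKR1 cells made up 14.4% of 817 such cells in the lateral red library (12.1 to 17%) and 24.8% of 886 in the medial red library (22.0 to 27.8%). They made up 0.676% of 148 in the lateral white library (0.0171 to 3.71%) and 1.22% of 246 in the medial white library (0.252 to 3.52%). The share depends on depth, because a count of 2 UMIs is reached more easily in a deep cell. The median UMI count of blood endothelial cells was 1173 in the lateral red, 1467 in the medial red, 989 in the lateral white and 1310.5 in the medial white library.

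**Figure D1:**
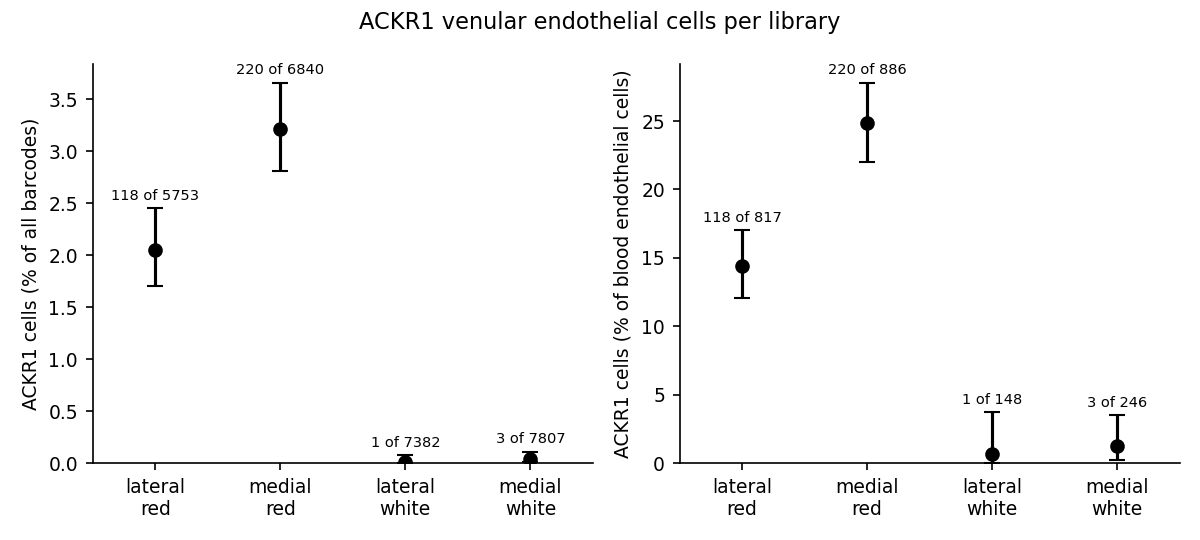
ACKR1 venular endothelial cells as a percentage of all barcodes (left) and of blood endothelial cells (right) in each library, with exact 95% binomial intervals that cover counting error only. The 2 red zone libraries sit at 14.4% and 24.8% of blood endothelial cells and the 2 white zone libraries at 0.676% and 1.22%.

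Thinned to 1000 UMIs a cell, the red zone libraries came closer together and stayed apart from the white zone. ACKR1 was then seen in 29.4% of 530 lateral red and 32.4% of 679 medial red blood endothelial cells, and in 1.43% of 70 lateral white and 2.60% of 154 medial white ones. Before thinning these shares were 33.9%, 43.5%, 2.70% and 3.25%. Thinning left out 287, 207, 78 and 92 shallower cells in that order. As background and before thinning, ACKR1 was seen in 0.0632% of 1582 lateral red and 0.118% of 2534 medial red barcodes that held none of the endothelial genes and at least 5% of their UMIs in COL1A1, COL1A2 and COL3A1. These collagen-rich barcodes had median depths of 1798 and 1634.5 UMIs.

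The amount of ACKR1 per cell was small. In the lateral red library 67 cells held 2 UMIs, 28 held 3 and 23 held 4 or more, with a maximum of 9. In the medial red library 89 held 2, 55 held 3 and 76 held 4 or more, with a maximum of 10. The rule thus passed close to many cells: 159 lateral red and 164 medial red endothelial cells held exactly 1 ACKR1 UMI. Cells just inside the limit, with 2 UMIs, had 1215 and 909 CPM of ACKR1 (the UMIs of a gene scaled to a common total per class and library, lateral then medial), and cells just outside it, with 1 UMI, had 713 and 537 CPM.

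The cells carried the markers of the label. ACKR1 reached 1541 and 1354 CPM in the cells against 59.9 and 89.6 CPM over all barcodes of the same libraries. PECAM1, an adhesion molecule of endothelial junctions, reached 2744 and 2139 CPM against 373 and 389 CPM. PLVAP, the protein of fenestral diaphragms, reached 935 and 941 CPM against 110 and 151 CPM. VWF, the clotting factor stored in endothelial granules, reached 691 and 682 CPM against 66.4 and 87.6 CPM. These 4 genes chose the cells, so their levels are a description. All 14 measured genes of a pan-endothelial list were detected in the cells of both red libraries, with a summed level of 3059 and 2725 CPM against 578 and 602 CPM over all barcodes.

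Markers of other cells were low, with a few exceptions. Of the 8 lymphatic genes 2 and 5 were detected, at a summed 329 and 252 CPM against 152 and 207 CPM over all barcodes, most of it LYVE1. CCL21, the chemokine of lymphatic endothelium, was at 0 in both red libraries. Of the 10 mural markers 5 and 8 were detected, at a summed 174 and 135 CPM against 2137 and 1715 CPM over all barcodes. Of the 10 myeloid markers 4 and 7 were detected, at 146 and 167 CPM against 716 and 616 CPM. The 10 fibroblast markers were all detected, at 7264 and 14065 CPM against 57218 and 64910 CPM. Most of that collagen came from few cells: 5 lateral red and 16 medial red cells had at least 2% of their UMIs in COL1A1, COL1A2 and COL3A1, and they held 83.9% and 92.8% of the UMIs of these 3 genes. T and NK markers summed to 14.1 and 54.0 CPM and mast cell markers to 70.5 and 63.0 CPM, against 82.7 and 68.9 and 27.7 and 44.0 CPM over all barcodes. B and plasma cell markers summed to 1480 and 88.1 CPM. A single lateral red cell held 302 of the 304 UMIs of JCHAIN, the joining chain of antibodies. No doublet caller was run. The share of ACKR1 cells among the 5% of barcodes with most UMIs was not even: 8 of 118 lateral and 46 of 220 medial cells were there.

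The 2 red zone libraries were then used to ask which genes outside the rule separated ACKR1 cells from other blood endothelial cells of the same library. The comparison cells met every condition of the rule but held no ACKR1, and they numbered 530 (lateral red) and 496 (medial red). They were shallower, with a median of 1117.5 and 1299.5 UMIs against 1569 and 2073.5 in the ACKR1 cells. Counts were summed per library and class and tested with edgeR, with the library as a block and a call at an adjusted p below 0.05. Of 6129 genes tested 69 were called (1.13%), 34 of them higher in ACKR1 cells (0.555%) and 35 lower (0.571%). The fit had 1 residual degree of freedom. Without the library block 15 genes were called, and DESeq2 called 13 of the 2918 genes to which it gave an adjusted p.

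**Figure D2:**
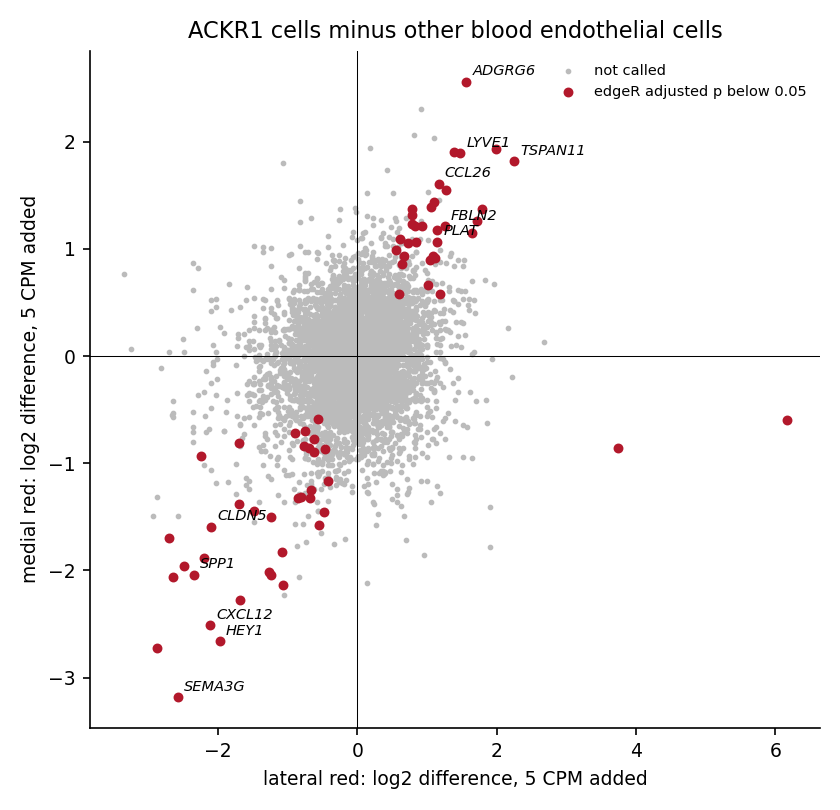
Log2 difference of each tested gene between ACKR1 cells and other blood endothelial cells in the lateral red (x axis) and the medial red library (y axis), with 5 CPM added to each level; genes called by edgeR are red and 11 are named. Of the 69 called genes 67 lie on the same side of 0 on both axes, and the 2 at the far right are the unnamed genes carried by a single lateral red cell.

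Of the 69 called genes 67 differed in the same direction in both libraries. The 2 exceptions were ENSSSCG00000036224 and ENSSSCG00000037775, which carry no symbol in the files. The same lateral red cell that held the JCHAIN UMIs held 684 of the 687 and 700 of the 705 UMIs of these genes among lateral red ACKR1 cells. They are named here after their values were seen.

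Venous identity genes were the first group. Of 12 listed, 11 were tested, and 3 were higher and 2 lower in ACKR1 cells, with a median log2 difference of 0.31 against -0.02 over all genes tested. Over all genes 0.555% were called higher and 0.571% lower. NR2F2, the transcription factor that sets venous fate, was at 423 and 358 CPM in ACKR1 cells and at 183 and 237 CPM in the others. The 2 libraries of each class did not overlap, and the log2 difference was 0.84 ± 0.17 (n = 2 libraries, edgeR adjusted p = 0.0294). Here and below, the value after ± is the log2 difference divided by the square root of the edgeR F statistic. It draws on variance shared across genes and is not a standard error over the 2 libraries. NR2F2 was called in 6 of 10 alternatives, and not with DESeq2, without the library block, without the 5% of barcodes with most UMIs or among cells of 1000 to 3000 UMIs. TLL1, a secreted metalloprotease related to BMP1, was at 113 and 93.5 CPM against 29.0 and 33.1 CPM (1.67 ± 0.27, edgeR adjusted p = 0.00813). IL1R1, the signalling receptor for interleukin 1, was at 263 and 250 CPM against 116 and 108 CPM (1.19 ± 0.17, edgeR adjusted p = 0.00449).

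Not every venous gene separated the cells. EPHB4, the venous ephrin receptor, stood at 32.9 and 19.8 CPM against 22.1 and 25.7 CPM, and the groups overlapped (edgeR adjusted p = 0.988). The 2 venous list genes called lower were VCAN and CLU. VCAN, a large matrix proteoglycan, was at 89.3 and 59.4 CPM in ACKR1 cells, at 134 and 187 CPM in the others and at 810 and 827 CPM over all barcodes. VCAN was called in 4 of 10 alternatives, and its log2 difference was 0.43 in place of -1.29 when collagen-rich and plasma-type barcodes were left out of both classes.

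Adhesion molecules for leukocytes held 1 called gene. Of 9 tested, 1 was called higher and none lower (median log2 difference 0.19), where 0.555% of all genes were called higher and 0.571% lower. VCAM1, which binds an integrin on leukocytes, was the one called, at 616 and 311 CPM in ACKR1 cells against 385 and 160 CPM. VCAM1 was higher within each library (0.79 ± 0.14, edgeR adjusted p = 0.0158), although the level of medial ACKR1 cells lay below that of lateral comparison cells. VCAM1 was called in 7 of 10 alternatives, and not with DESeq2, without the library block or after thinning. ICAM1, which binds leukocyte integrins, was at 310 and 261 CPM against 228 and 191 CPM and was not called (0.43 ± 0.15, edgeR adjusted p = 0.294). SELP, the selectin on which leukocytes roll, rested on few counts: 10 and 17 UMIs in ACKR1 cells and 14 and 3 UMIs in the others. That gave 47.0 and 30.6 CPM against 19.3 and 3.67 CPM, with no overlap and no call (1.88 ± 0.48, edgeR adjusted p = 0.0995). Across the 7 alternatives that gave SELP an adjusted p it ranged from 0.0047 to 0.60, and 3 of them called it.

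Chemokines and cytokines included 4 of 12 tested genes called higher and 2 called lower, with a median log2 difference of -0.18. Over all genes 0.555% were called higher and 0.571% lower. CCL26, a chemokine for eosinophils, was at 526 and 459 CPM in ACKR1 cells and at 232 and 147 CPM in the others (1.41 ± 0.16, edgeR adjusted p = 0.000686). IL33, an alarmin kept in the nucleus of endothelial cells, was at 211 and 245 CPM against 109 and 103 CPM (1.12 ± 0.18, edgeR adjusted p = 0.00882). IL6, an inflammatory cytokine, was at 324 and 192 CPM against 186 and 71.0 CPM (1.08 ± 0.19, edgeR adjusted p = 0.0148). All 3 were higher in both libraries. CCL26 was called in all 10 alternatives, IL6 in 7 and IL33 in 6. The calls of IL6 and IL33 were lost with DESeq2, without the library block and among cells of 1000 to 3000 UMIs. That of IL33 was also lost after thinning.

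CXCL9, an interferon-induced chemokine for T cells, was also called (0.88 ± 0.14, edgeR adjusted p = 0.00813) but came from few cells. It was at 662 and 412 CPM in ACKR1 cells against 400 and 196 CPM. Only 16 of 118 lateral and 17 of 220 medial ACKR1 cells held a UMI of it, and 1 medial cell held 136 of the 229 medial UMIs. The log2 differences over the alternatives ranged from 0.06 to 1.54.

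The genes with the largest differences upward came from several functions. ADGRG6, an adhesion G protein-coupled receptor, was at 103 and 140 CPM in ACKR1 cells against 31.7 and 19.6 CPM (2.32 ± 0.30, edgeR adjusted p = 0.00181). TSPAN11, a tetraspanin of the cell membrane, was at 136 and 173 CPM against 24.8 and 45.3 CPM (2.08 ± 0.24, edgeR adjusted p = 0.000688). LYVE1, a hyaluronan receptor best known from lymphatic endothelium, was at 320 and 232 CPM against 112 and 58.8 CPM (1.73 ± 0.19, edgeR adjusted p = 0.000686). Each of these genes was at least 2-fold higher in both libraries.

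The other lymphatic genes were scarce. Of 8 lymphatic list genes 2 passed the filter on low counts, and LYVE1 was the only one of them called. Over all genes 0.555% were called higher. CCL21, RELN and TFF3 were at 0 in the ACKR1 cells of both red libraries.

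Matrix and fibrinolysis genes followed. FBLN2, a fibulin of elastic and basement membrane matrix, was at 1048 and 903 CPM in ACKR1 cells against 437 and 387 CPM (1.23 ± 0.12, edgeR adjusted p = 0.000313). PLAT, the tissue plasminogen activator that endothelium releases into blood, was at 1522 and 1171 CPM against 684 and 556 CPM (1.10 ± 0.12, edgeR adjusted p = 0.000508). Of 12 tested coagulation and fibrinolysis genes PLAT was the only one higher, where 0.555% of all genes were called higher and 0.571% lower. The only one lower was TFPI, the tissue factor pathway inhibitor, at 4.7 and 5.4 CPM against 49.6 and 35.5 CPM (-2.89 ± 0.51, edgeR adjusted p = 0.0138). TFPI rested on few UMIs in the ACKR1 cells. It was called in 6 of 8 alternatives, and not without the library block or among cells of 1000 to 3000 UMIs. PTGS2, the inducible cyclooxygenase, was at 493 and 290 CPM against 230 and 149 CPM (1.01 ± 0.15, edgeR adjusted p = 0.00519). PTGS2 was called in 7 of 10 alternatives, and not with DESeq2, without the library block or among cells of 1000 to 3000 UMIs.

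The remaining genes that met the naming rule upward were SERTM1 (log2 difference 1.51), CHP2 (1.37) and SESN3 (1.10). Of the 12 genes so named 5 were called under all 10 alternatives run, and these were ADGRG6, TSPAN11, LYVE1, CCL26 and FBLN2. PLAT missed the threshold only without the library block, and TLL1, CHP2 and IL1R1 only with DESeq2.

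**Figure D3:**
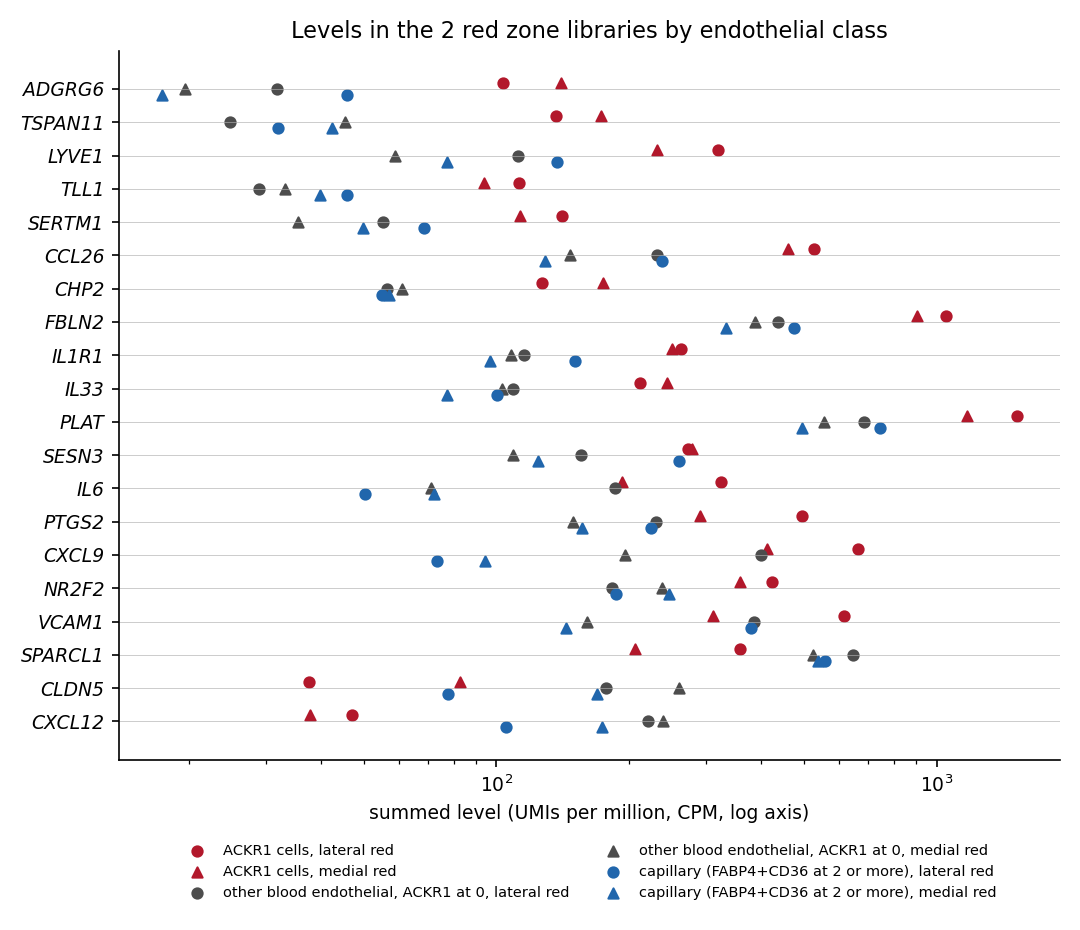
Summed level in CPM (log axis) of 20 genes in ACKR1 cells (red), other blood endothelial cells (grey) and capillary endothelial cells (blue) of the lateral red (circles) and medial red library (triangles), ordered by the log2 difference between the first 2 classes. For PLAT the ACKR1 cells sit at 1522 and 1171 CPM and the other blood endothelial cells at 684 and 556 CPM, while for CXCL12 at the foot of the plot the order of the classes is turned round.

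Arterial genes formed the main group on the lower side. Of 10 tested, 5 were lower and none higher, with a median log2 difference of -0.86, where 0.571% of all genes were called lower. The 5 were SEMA3G, HEY1, GJA4, CXCL12 and MGP. The 14 listed genes summed to 1005 and 1180 CPM in ACKR1 cells and to 1656 and 2939 CPM in the others. Over all barcodes they summed to 5658 and 10307 CPM, and the part of RNA from other cells was not tested. SEMA3G, a semaphorin of arterial endothelium, had 0 UMIs in the ACKR1 cells of both red libraries and 18 and 33 UMIs in the other cells. Set against a floor of 3 counts over the group, SEMA3G was at least 8.47-fold lower (edgeR adjusted p = 0.00717). HEY1, a Notch target of arterial fate, had 1 UMI in each library of ACKR1 cells and 24 and 31 in the others, a ratio of 13.7 with an exact counting interval of 3.62 to 116 (edgeR adjusted p = 0.0115). GJA4, an arterial gap junction protein, had 3 UMIs against 49, a ratio of 8.14 with an interval of 2.63 to 40.8 (edgeR adjusted p = 0.0224).

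CXCL12, the ligand of CXCR4 and an arterial marker in many tissues, was at 47.0 and 37.8 CPM in ACKR1 cells and at 221 and 239 CPM in the others (-2.52 ± 0.23, edgeR adjusted p = 0.000255). It was called under all 10 alternatives. CXCL12 is not restricted to vessels here, at 264 and 394 CPM over all barcodes. In the lateral red library, before thinning, it was seen in 10.4% of 1582 collagen-rich barcodes and 11.3% of 530 comparison cells. CXCR4 itself was at 18.8 and 10.8 CPM against 52.4 and 58.8 CPM (-2.10 ± 0.40, edgeR adjusted p = 0.0218). CXCR4 rested on few UMIs in the ACKR1 cells and was called in 5 of 9 alternatives. Its call was lost without the library block, without the 5% of barcodes with most UMIs, after thinning and among cells of 1000 to 3000 UMIs.

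Junction genes held a single difference. Of 12 tested, 1 was lower, where 0.571% of all genes were called lower. This was CLDN5, a claudin that seals endothelial junctions, at 37.6 and 82.7 CPM against 178 and 260 CPM (-1.79 ± 0.21, edgeR adjusted p = 0.000909). CDH5, the cadherin of the same junctions, was at 197 and 144 CPM against 221 and 162 CPM and was not called (edgeR adjusted p = 0.798). KDR, the main VEGF receptor, was at 94.0 and 98.9 CPM against 96.5 and 102 CPM (edgeR adjusted p = 0.969). Of 12 angiogenic receptors tested none was called, and with 1.13% of all genes called this zero says nothing of the group.

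Several of the lower genes stood higher over all barcodes than in endothelial cells. Of the 12 genes named downward 9 had a higher level over all barcodes than in either class in both libraries: CXCL12, SPP1, IGFBP5, ADIRF, ECM1, APOE, S100A4, VCAN and CXCL14. SPP1, for example, was at 18.8 and 14.4 CPM in ACKR1 cells, at 116 and 74.7 CPM in the others and at 347 and 232 CPM over all barcodes. The part of RNA from other cells in these differences was not tested. The named genes that did not stand so were CLDN5, LTBP4 and SPARCL1. SPARCL1, a matricellular protein, was at 357 and 207 CPM against 647 and 524 CPM (-1.13 ± 0.15, edgeR adjusted p = 0.0021).

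Inflammatory programmes were also counted. Of 13 tested NF-kappaB targets 2 were higher, SOD2 and VCAM1, with a median log2 difference of 0.17, where 0.555% of all genes were called higher. None of 15 immediate-early and heat-shock genes, 13 interferon-stimulated genes or 7 MHC genes was called in either direction, with medians of -0.11, 0.07 and -0.01, and with so low a share called over all genes these zeros say nothing of the groups. SOD2, the mitochondrial superoxide dismutase, was at 818 and 968 CPM against 554 and 484 CPM (0.78 ± 0.14, edgeR adjusted p = 0.0129). SOD2 was called in 7 of 10 alternatives, and not with DESeq2, without the library block or among cells of 1000 to 3000 UMIs.

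The differences could also be followed along the ACKR1 count, from cells with none to cells with 1, 2 and at least 3 UMIs. Cells with 1 UMI entered neither class of the comparison above. The genes shown were chosen for their difference between cells with 0 and with at least 2 UMIs, so the ends of each series were set by that choice. PLAT was at 684, 1067, 1505 and 1541 CPM in the lateral red, and at 556, 835, 1108 and 1205 CPM in the medial one. FBLN2 was at 437, 802, 897 and 1210 CPM (lateral) and at 387, 606, 755 and 983 CPM (medial). Both genes stood in the same order in both libraries. CXCL12 was at 221, 35.9, 27.2 and 68.3 CPM (lateral) and at 239, 72.0, 45.9 and 33.3 CPM (medial), so it was already low in cells just outside the rule. NR2F2 was at 287 and 187 CPM in cells with 1 UMI, above the lateral and below the medial cells with no ACKR1 UMI. The median depth differed along this series too, from 1117.5 to 1674 UMIs in the lateral and from 1299.5 to 2645 UMIs in the medial library.

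**Figure D4:**
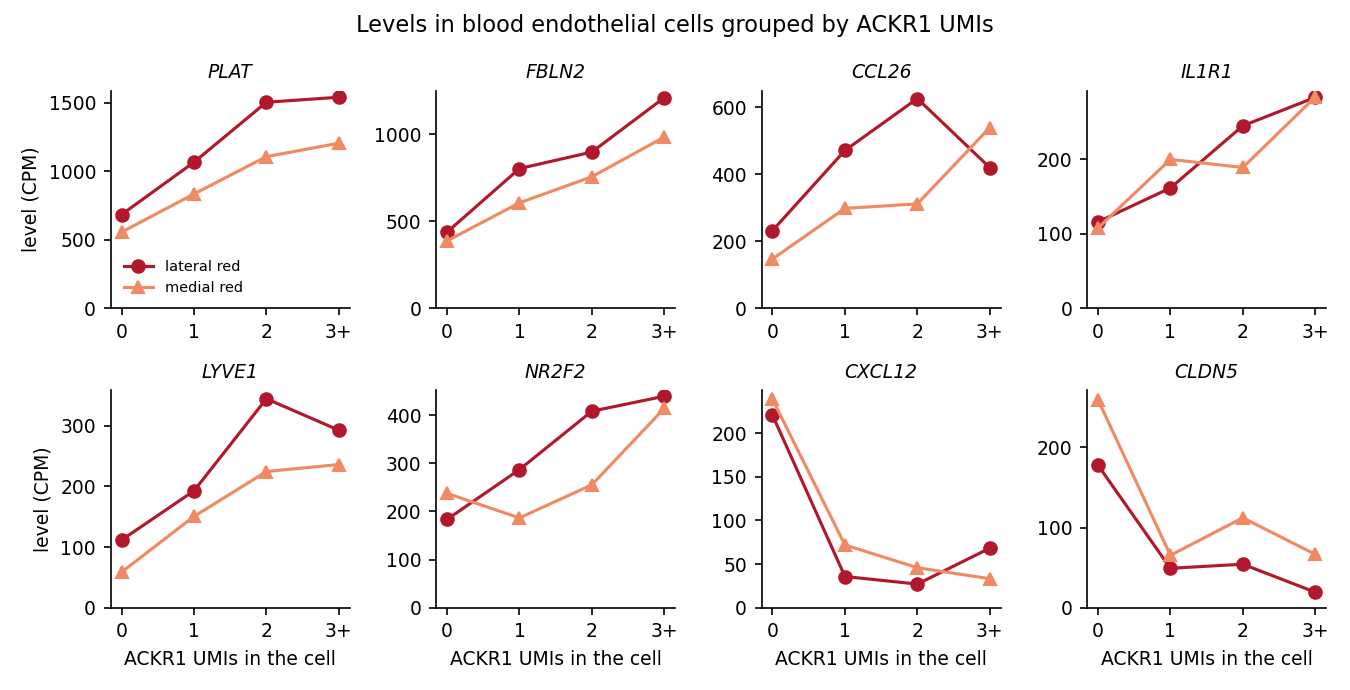
Summed level in CPM (y axis, from 0) of 8 genes in blood endothelial cells of the red zone with 0, 1, 2 or at least 3 ACKR1 UMIs (x axis), for the lateral (circles) and medial red library (triangles). The genes were chosen for differing between 0 and at least 2 UMIs. PLAT and FBLN2 are higher at each step in both libraries, and CXCL12 drops from 221 and 239 CPM at 0 UMIs to 35.9 and 72.0 CPM at 1.

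Cell by cell, the genes were not evenly spread. After thinning to 1000 UMIs, PLAT was seen in 67.7% of 96 lateral ACKR1 cells (57.4 to 76.9%) and 69.1% of 194 medial ones (62.1 to 75.5%). In the other blood endothelial cells it was seen in 45.3% of 320 and 35.3% of 354, and in collagen-rich barcodes in 0.658% and 1.22%. CCL26 was seen in 32.3% and 26.3% of ACKR1 cells, in 17.2% and 13.0% of the others and in 0 of 1367 and 0.0489% of 2043 collagen-rich barcodes. The count of 0 allows a share of up to 0.269% of barcodes with a UMI (exact interval). LYVE1 was seen in 24% and 21.1% of ACKR1 cells, 9.06% and 4.80% of the others and 0.146% and 0.538% of collagen-rich barcodes. TSPAN11 was seen in 12.5% and 17.5% of ACKR1 cells and in 2.81% and 4.52% of the others, which is close to its 1.83% and 3.08% in collagen-rich barcodes. FBLN2 is not restricted to vessels: it was seen in 52.1% and 53.1% of ACKR1 cells, 30.9% and 26.8% of the others and 16.3% and 24.1% of collagen-rich barcodes. Before thinning PLAT was seen in 79.7% and 86.4% of ACKR1 cells and 47.7% and 49.0% of the others. Thinning left out 22 and 26 ACKR1 cells and 210 and 142 others.

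A second comparison was with capillary endothelial cells. They were the other blood endothelial cells with at least 2 UMIs of the fatty acid genes FABP4 and CD36, 127 (lateral red) and 221 (medial red). They also form part of the comparison cells above, and both comparisons use the same ACKR1 cells. Of 4111 genes tested 56 were called (1.36%), 32 higher in ACKR1 cells (0.778%) and 24 lower (0.584%). The count was 12 without collagen-rich and plasma-type barcodes, 13 with cells thinned to 1000 UMIs, 6 with DESeq2 and 1 without the library block.

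ACKR1 cells were not free of capillary genes. FABP4 was at 912 and 1790 CPM and CD36 at 117 and 194 CPM in them, against 1030 and 2003 CPM and 109 and 141 CPM in all other blood endothelial cells. Neither gene was called in that comparison (edgeR adjusted p = 0.583 for FABP4 and 0.569 for CD36). In the capillary cells, which these genes chose, FABP4 was at 3131 and 3915 CPM. FABP5, a related fatty acid binding protein, was at 3641 and 4598 CPM in ACKR1 cells and at 7666 and 7307 CPM in capillary cells (-0.89 ± 0.08, edgeR adjusted p = 3.44e-08).

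Chemokines were again among the genes higher in ACKR1 cells. Of 12 tested chemokines and cytokines 5 were higher than in capillary cells and 1 was lower, where 0.778% of all genes were called higher and 0.584% lower. Their median log2 difference was 0.38 against -0.01 over all genes tested. CXCL9 was at 662 and 412 CPM against 73.1 and 94.4 CPM (2.50 ± 0.23, edgeR adjusted p = 8.89e-08). As above, it came from 16 of 118 lateral and 17 of 220 medial ACKR1 cells, and 1 medial cell held 136 of the 229 medial UMIs. CXCL9 was called in 9 of 10 alternatives, and not after thinning to 1000 UMIs. CXCL10, a second interferon-induced chemokine, was at 197 and 178 CPM against 68.6 and 67.1 CPM (1.41 ± 0.25, edgeR adjusted p = 0.00165). IL6 was at 324 and 192 CPM against 50.3 and 72.1 CPM (1.85 ± 0.27, edgeR adjusted p = 0.000171). CXCL10 did not follow this order against all other blood endothelial cells, which held 299 and 208 CPM of it (-0.40 ± 0.17, edgeR adjusted p = 0.425).

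Further genes above capillary cells included SRGN, the proteoglycan core of secretory granules, at 249 and 324 CPM against 77.7 and 99.4 CPM (1.66 ± 0.22, edgeR adjusted p = 5.16e-05). ADGRG6, TSPAN11, CCL26, CHP2, IL33 and LYVE1 were called here as well, with log2 differences of 2.16, 2.00, 1.48, 1.44, 1.40 and 1.39. RGS4 and WWP1 were higher by 1.78 and 1.56. None of the 12 genes named upward here, and none of the 12 named downward, was called under every alternative.

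Lower than in capillary cells were RGCC, a cell cycle regulator high in capillaries, at 432 and 263 CPM against 768 and 567 CPM (-1.01 ± 0.16, edgeR adjusted p = 0.000377), and 3 of 12 basement membrane genes. The basement membrane genes were COL4A2 (-0.90), COL15A1 (-0.82) and SPARCL1 (-1.08), where 0.584% of all genes were called lower. CLDN5 was lower here too, at 37.6 and 82.7 CPM against 77.7 and 169 CPM, close to the threshold (-1.07 ± 0.27, edgeR adjusted p = 0.0453) and called in 4 of 10 alternatives. NUSAP1, a protein of the mitotic spindle, was at 14.1 and 48.6 CPM against 50.3 and 137 CPM (-1.58 ± 0.33, edgeR adjusted p = 0.0089). Of the 12 genes named downward 4 had a higher level over all barcodes than in either class in both libraries: CXCL12, SFRP2, TENT5A and MAP1B. RGCC was at 876 and 472 CPM over all barcodes. The part of RNA from other cells was not tested.

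ACKR1 cells of the lateral and the medial red library were set side by side. With 1 library for each meniscus there was no test, and ratios are given with exact counting intervals. Of 2149 genes that averaged 50 CPM or more and stood no lower than in the whole library, 64 differed by more than 2-fold (2.98%). PLAU, the urokinase plasminogen activator, was at 630 CPM in lateral and 194 CPM in medial ACKR1 cells, a ratio of 3.24 (2.50 to 4.22). PLAU stood the same way in the other blood endothelial cells, at 459 and 209 CPM. HSPB8, a small heat-shock protein, was at 127 and 30.6 CPM, a ratio of 4.15 (2.18 to 8.11), and HSPB8 too stood the same way in the other cells (130 and 52.6 CPM). On the medial side DUT, which clears dUTP, was at 133 against 32.9 CPM, a ratio of 4.05 (1.87 to 10.4), with 180 against 82.7 CPM in the other cells. FMO1, a monooxygenase, was at 104 against 28.2 CPM, a ratio of 3.70 (1.60 to 10.5), with 77.1 against 55.2 CPM in the other cells. SCAND1 and FJX1 were also higher on the medial side but stood the other way in the other cells. SCAND1 was at 88.1 against 23.5 CPM, with 75.9 against 88.3 CPM in the other cells. FJX1 was at 79.1 against 23.5 CPM, with 56.3 against 112 CPM in the other cells. ARHGEF39 and ZNRF1 (lateral) and TARDBP (medial) stood the same way in both classes. Whether any of these differences is particular to ACKR1 cells was not tested. Among genes with a symbol JCHAIN had the largest lateral excess, 1428 against 10.8 CPM, from the single cell described above.

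In the white zone the 4 ACKR1 cells were too few to sum. They held 10 UMIs of ACKR1 and 29 of PECAM1, and all 4 had both. PLAT was seen in 3 of the 4 with 6 UMIs, and VCAM1 in 3 with 5 UMIs. None held a UMI of CCL26, IL1R1, ADGRG6, TSPAN11, IL6, IL33, FABP4, CD36 or CLDN5. Tests of zone or meniscus within ACKR1 cells were therefore not run.

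The zones were compared instead in all blood endothelial cells, a comparison added after the data were seen. The 4 libraries held 817, 886, 148 and 246 such cells (lateral red, medial red, lateral white, medial white), and edgeR tested the zone with lateral or medial meniscus as a block. Of 6975 genes tested 870 were called (12.5%), 392 higher in the white zone (5.62%) and 478 lower (6.85%). This fit too had 1 residual degree of freedom, and its p-values rest on 2 against 2 libraries however small they are. DESeq2 called 120 of the 4538 genes to which it gave an adjusted p. Without TMM scaling 482 were higher and 304 lower, with the median of all genes at 0.15 in place of 0.01. Fits on 3 libraries had to drop the meniscus block, which on all 4 libraries gave 718 calls. Without the lateral red, medial red or medial white library they gave 455, 375 and 324 calls, and without the lateral white library 819. In summed counts fewer ACKR1 cells and less RNA per cell cannot be told apart.

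ACKR1 was at 413 and 542 CPM in the red and at 25.4 and 28.5 CPM in the white zone, a log2 difference of -4.32 given as a description. CCL26 was at 326 and 275 CPM in the red zone and had 1 UMI in the white zone against 851, a ratio of 193 (34.6 to 7641; edgeR adjusted p = 2.84e-40). FBLN2 was at 612 and 596 CPM against 40.7 and 39.5 CPM (-4.06 ± 0.32, edgeR adjusted p = 1.89e-33). PLAT was at 900 and 807 CPM against 249 and 184 CPM (-2.14 ± 0.27, edgeR adjusted p = 5.82e-13). The zones did not overlap for any of these 4 genes, which came from the rule or from the red zone comparison. The share of all tested genes without overlap was not counted, so this is a description.

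TSPAN11 and SERTM1 were at 0 in both white libraries, at least 17.2-fold and 16.8-fold lower against a floor of 3 counts over the zone. TLL1 had 1 UMI against 159, a ratio of 36.1 (6.39 to 1435). IL33 had 3 UMIs against 459, a ratio of 34.7 (11.8 to 169), and IL6 had 2 against 430, a ratio of 48.8 (13.4 to 404). IL1R1 was at 149 and 172 CPM against 35.6 and 24.1 CPM (-2.69 ± 0.34, edgeR adjusted p = 1.51e-13). LYVE1 was at 163 and 133 CPM against 45.8 and 13.2 CPM (-2.72 ± 0.35, edgeR adjusted p = 6.77e-13). The red zone libraries are also those in which these genes were chosen.

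Capillary genes were low in the white zone as well, so the pattern was not limited to venular genes. FABP4 was at 945 and 1916 CPM in the red and 96.6 and 15.3 CPM in the white zone (-5.13 ± 0.37, edgeR adjusted p = 7.46e-40). CD36 was at 0 in both white libraries, at least 31.3-fold lower. Markers of cartilage cells stood the other way: all 7 tested chondrocyte markers were called higher in white zone endothelial cells, against 5.62% of all genes. The 10 listed markers summed to 1154 and 688 CPM in the white zone. Their part in the differences was not tested.

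For 3 genes higher in ACKR1 cells the zones overlapped. VCAM1 was at 445 and 236 CPM in the red and 214 and 268 CPM in the white zone (-0.51 ± 0.24, edgeR adjusted p = 0.159). CXCL9 was at 403 and 248 CPM against 452 and 294 CPM (0.07 ± 0.24, edgeR adjusted p = 0.893). ADGRG6 was called (-1.66 ± 0.41, edgeR adjusted p = 0.000884), but its 46.6 and 78.5 CPM in the red and 55.9 and 6.58 CPM in the white zone overlapped. NR2F2 did not overlap and was lower in the white zone, at 244 and 268 CPM against 76.3 and 186 CPM (-1.07 ± 0.25, edgeR adjusted p = 0.000475), a call kept in 10 of 14 alternatives.

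The zone difference of most of these genes was also present among blood endothelial cells with no ACKR1 UMI. In those cells alone CCL26 differed by -6.37, FBLN2 by -3.43, PLAT by -1.65, IL1R1 by -2.05 and IL33 by -5.65 on the log2 scale, each with an edgeR adjusted p below the threshold (0.000794, 0.000694, 0.0107, 0.0196 and 0.00283). These 5 genes were called under all 14 alternatives. The calls of LYVE1, SESN3 and NR2F2 were lost there, with log2 differences of -1.50, -1.03 and -0.69, and ADGRG6 stood at 0.13. A cell with no ACKR1 UMI may still be an ACKR1 cell whose UMIs were missed. After thinning, ACKR1 was still seen in 86.5% of lateral red and 76.3% of medial red ACKR1 cells. The part of missed ACKR1 cells in these zone differences was not tested.

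**Figure D5:**
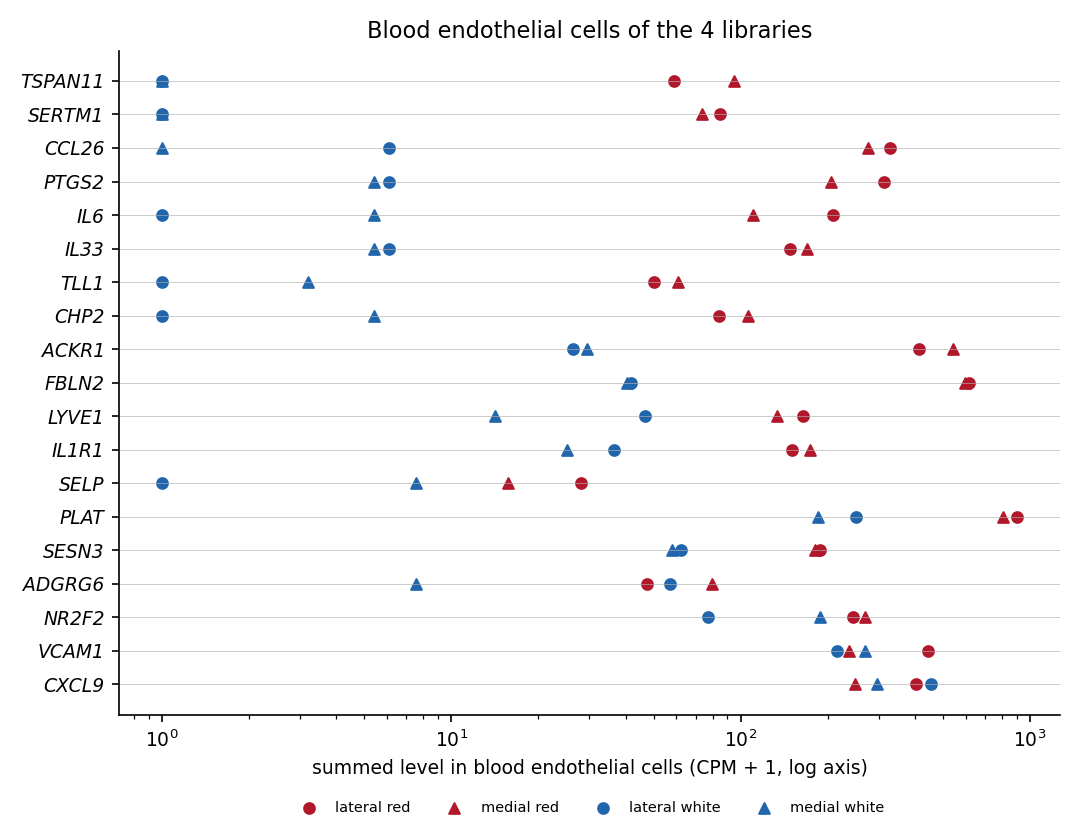
Summed level in CPM plus 1 (log axis) of 19 genes in all blood endothelial cells of the lateral (circles) and medial (triangles) libraries of the red (red) and white zone (blue), ordered by the zone difference. ACKR1 sits at 413 and 542 CPM in the red and 25.4 and 28.5 CPM in the white zone, while the zones overlap for ADGRG6, VCAM1 and CXCL9.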

How the data were processed

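The authors deposited UMI counts as 1 sparse matrix per library, made with Cell Ranger 6.1.2 on Sscrofa11.1 per the submitters' processing notes. Of 21280 features 14811 had a symbol in the files, 688 took one from the reference table and 5781 kept an identifier. SELE was not analysed here. No doublet caller was run, and an alternative left out the 5% of barcodes with most UMIs. Pairs of libraries shared 10 to 20 barcode sequences, and no ACKR1 cell was in both of a pair.

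The members, the 31 gene lists and the tests were chosen with earlier results of these data known. Counts were summed per library and class of at least 10 cells and tested with edgeR 4.0.16 in R 4.3.3 (TMM, filterByExpr, quasi-likelihood test, Benjamini-Hochberg adjustment over all genes tested). Rule genes stayed in the fit and out of the counts of calls. Named genes had a symbol, an adjusted p below 0.05, the same direction in both libraries and a mean of at least 50 CPM, and were the 12 largest in each direction. Listed genes were added, up to 5 per list by lowest p, with a fixed set of endothelial genes. For the 2 red libraries they were the 5 largest ratios each way. Genes of the zone comparison were taken from the first comparison. Alternatives included DESeq2 1.42.0, other scaling and filters, other ACKR1 limits, thinning and leaving out libraries. The scripts were tested on simulated data. Intervals came from scipy 1.17.1.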

Additional observations from a re-analysis of the deposited data

How the results depend on the processing

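The number of ACKR1 cells was 673 with at least 1 ACKR1 UMI and 184 with at least 3. Against other blood endothelial cells the count of called genes was 13 with DESeq2, 152 with no filter on low counts, 132 with at least 3 ACKR1 UMIs, 15 without the library block, 116 with an endothelial sum of at least 5 and 159 without collagen-rich and plasma-type barcodes. Against capillary cells it was 87 without TMM, 6 with DESeq2, 85 with no filter, 1 without the library block, 13 after thinning and 12 without collagen-rich and plasma-type barcodes. By zone it was 120 with DESeq2, 420 after thinning, 535 among cells of 1000 to 3000 UMIs and 218 among cells with no ACKR1 UMI. It was 324 to 819 without 1 library and without the meniscus block. Without the replicate block of lateral and medial meniscus 718 genes were called by zone, 319 higher and 399 lower. The settings with a collagen, UMI range or endothelial sum limit, and the zone comparison with its alternatives, were chosen after seeing the data.

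Against other blood endothelial cells the sign changed for VCAN (0.43) and CXCL14 (0.32) without collagen-rich and plasma-type barcodes. It changed for KDR after thinning (0.074) and among cells of 1000 to 3000 UMIs (0.13). It changed for EPHB4 with at least 3 ACKR1 UMIs (0.13), without the 5% of barcodes with most UMIs (0.30) and with an endothelial sum of at least 5 (0.51). Against capillary cells KDR stood at -0.041, -0.014 and -0.045 with at least 3 ACKR1 UMIs, without the 5% of barcodes with most UMIs and without collagen-rich and plasma-type barcodes. By zone ADGRG6 (0.13) and VCAM1 (0.038) changed sign among cells with no ACKR1 UMI. CXCL9 stood at -0.00231 with no filter, -0.59 after thinning, -0.15 with an endothelial sum of at least 5, -0.35 among cells of 1000 to 3000 UMIs, and -0.32 to 0.38 without 1 library. The cause was not tested.

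Leaving out a library in the class comparisons left 1 pair and no residual degrees of freedom, so only the 2 differences per gene remain. Tests within ACKR1 cells by zone or meniscus and against sprouting cells were not run, because a class held under 10 cells. Low counts limit SELP, TFPI, CXCR4 and the arterial genes.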
